A study of Mus musculus with 6 samples.

Results

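The input libraries of an RNA immunoprecipitation experiment give the unselected RNA of the cerebellar granule cell (GC) preparation, and 2 of the 6 libraries of the series are of this kind. They were chosen by their labels, which call them the input of replicates 1 and 2. The ranking below takes in the 21806 nuclear protein-coding genes among the 52550 gene IDs of the table, after rRNA, small RNA, long noncoding RNA, pseudogene and mitochondrially encoded genes were left out. Both libraries came from wild-type C57BL/6 mice labelled postnatal day 8, and the text of the study gives a span of days that ends there. The study describes removal of meninges and dissociation with trypsin and DNase I for cells that were then plated and cultured. For the RIP it says that granule cells were lysed, but not whether they were fresh or cultured. The input is RNA from that lysate before any antibody was added. The cells are labelled as granule cells, but no sort or gradient is described in the sources used here. The preparation may therefore have held other cells of the cerebellum. Nothing in the labels says that the replicates came from separate animals or cultures. With 1 group of 2 libraries no test between groups was possible, and values below are given for replicate 1 and then for replicate 2 (n = 2).

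Granule cells are small glutamatergic neurons and the most numerous neurons of the brain. In the first postnatal weeks of the mouse their precursors divide in the external granular layer under Sonic hedgehog released by Purkinje cells. They then leave the cycle, extend parallel fibre axons and migrate inward along Bergmann glia to the inner granular layer, where they acquire the receptors of mature granule neurons. A preparation of this age therefore may hold precursors, migrating neurons and young granule neurons together, beside the other cells of the cerebellum.

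Levels are FPKM values (fragments per kilobase of a transcript, set against all mapped fragments), which are corrected for transcript length and can be compared between genes. Of the summed FPKM of each library, nuclear protein-coding genes made up 7.71% and 8.26%. Mitochondrially encoded genes held 18.4% and 18.0%, small RNA genes 20.8% and 24.5%, and annotated rRNA genes 3.16% and 3.33%. Long noncoding RNA and unclassified loci held 48.4% and 44.6%. The files give no read counts. The spacing of the lowest values put 1 fragment on a transcript of 1000 nt at about 0.0379 and 0.0322 FPKM, but most values did not fall on multiples of this spacing, so the depth of the libraries is not known. By this estimate a level below about 0.1 FPKM rests on a few fragments for a transcript of 1000 nt, and on more for a longer one.

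In all, 8736 and 9003 nuclear coding genes reached 1 FPKM, and 8391 did so in both libraries, which is 38.5% of those ranked. A further 957 reached it in only 1 library. At 0.1 FPKM the count in both was 12895, at 10 FPKM it was 1095 and at 100 FPKM it was 46. The table listed 5751 genes at 0 in both libraries. The levels were concentrated in few genes. The 100 most abundant genes of each library held 21.7% and 22.9% of the nuclear coding FPKM, and 831 and 762 genes held 50% of it. The median level of all ranked genes was 0.449 and 0.484 FPKM.

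The most abundant transcripts encoded the machinery of translation, protein folding, chromatin and the cytoskeleton. *Eef1a1*, which encodes the elongation factor that brings aminoacyl-tRNA to the ribosome, came first with 727 and 494 FPKM. *Hsp90ab1*, the constitutive HSP90 chaperone, followed with 419 and 766 FPKM, and *Ptma*, which encodes the nuclear protein prothymosin alpha, with 507 and 572 FPKM. The ranges of these leading genes overlapped, so their order was not resolved. *Tmsb10*, which encodes an actin monomer-binding thymosin, had 375 and 633 FPKM. *Tuba1a*, the main alpha-tubulin of newborn neurons, had 339 and 571 FPKM, and *Actb* 335 and 450 FPKM. Below them stood *Hist1h4h* with 307 and 314 FPKM, *Stmn1*, a microtubule-destabilising protein, with 260 and 336 FPKM, *Hnrnpa1* with 342 and 243 FPKM and *Tmsb4x* with 366 and 195 FPKM. *Actb* and *Hist1h4h* were the only neighbours, among the 40 neighbouring pairs at the top of the order, in which both values of the higher gene lay above both values of the lower. Of the 100 genes highest by mean, 92 were in the top 100 of replicate 1, 90 in that of replicate 2 and 82 in both.

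**Figure D1:**
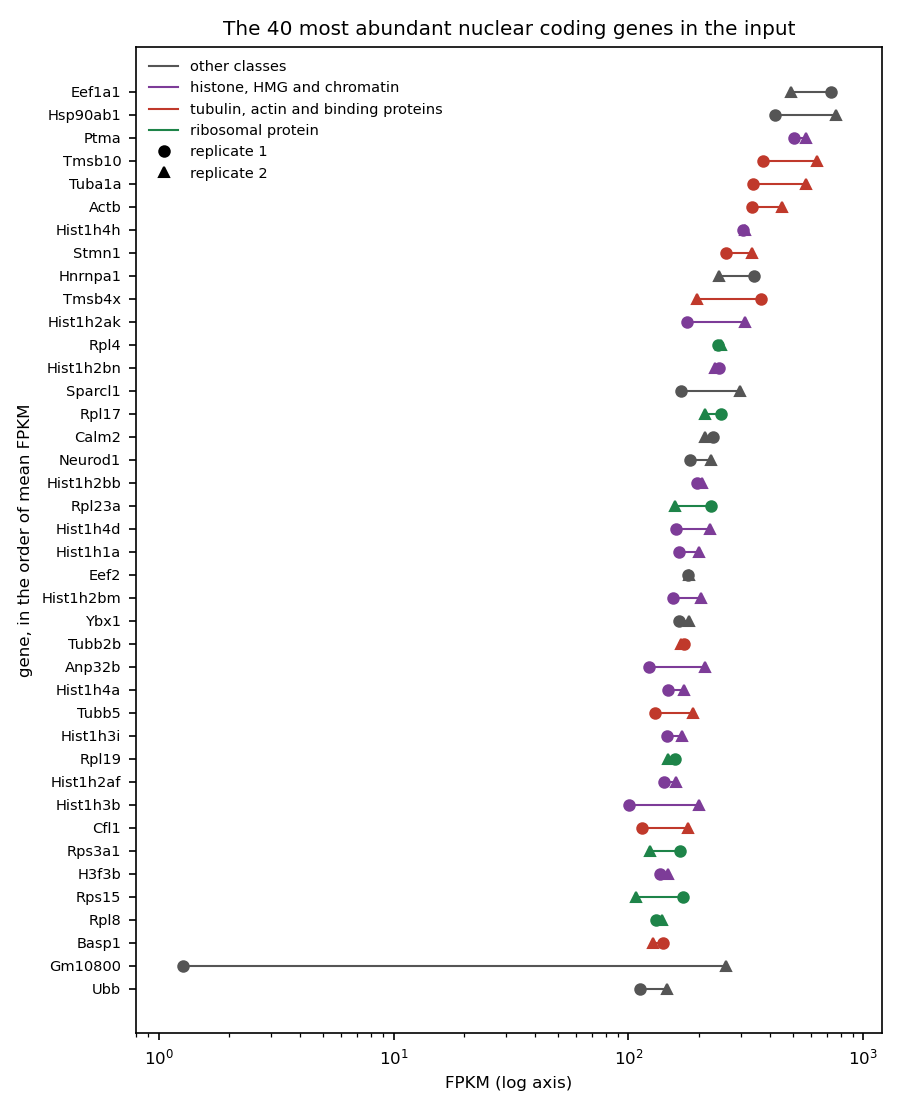
FPKM on a log axis of the 40 nuclear protein-coding genes with the highest mean FPKM over both input libraries, in that order, with a circle for replicate 1, a triangle for replicate 2 and colours for gene classes. Most lines between the replicates overlap those of their neighbours, and *Gm10800* spans 1.27 to 260 FPKM.

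*Neurod1*, a basic helix-loop-helix factor of granule cell differentiation, was the most abundant gene of the transcription factor class. It stood at rank 17 of all nuclear coding genes, with 183 and 224 FPKM. *Zic1* stood at rank 68 with 71.9 and 118 FPKM. These were the only genes of that class in the top 100. The class holds 212 genes set by symbol pattern and need not cover every transcription factor. *Sparcl1*, which encodes an extracellular matrix protein made by astrocytes, stood at rank 14 with 167 and 298 FPKM, and *Calm2*, a calmodulin gene, at rank 16 with 229 and 212 FPKM. The ranks of the glial genes *Sparcl1* and *Fabp7* were as high as those of many housekeeping genes, so the top of the order was not made up of granule cell transcripts alone.

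Histone transcripts were the largest class at the top of the order when ranked by FPKM. Genes of histones, high mobility group and other chromatin proteins supplied 36 of the top 100 genes and 9.91% and 10.2% of nuclear coding FPKM. This lead depended on short transcripts. Weighted by transcript length, the mean share of the class was 3.60%, level with tubulins, actins and their binding proteins at 3.59%, and among transcripts of at least 500 nt it was 6.66%, against 6.07% for ribosomal proteins. The replication-dependent histone genes, whose symbols start with Hist, accounted for most of this, with 67 genes, 59 at 1 FPKM or more in both libraries and 27 in the top 100. Of all nuclear coding genes, 38.5% reached 1 FPKM in both libraries. Together they held 7.01% and 7.16% of nuclear coding FPKM, and 54 of them lie on chromosome 13. All 5 families took part. The median level was 82.6 and 69.1 FPKM for the 13 H4 genes, 52.4 and 47.6 FPKM for the 18 H2A genes, 38.2 and 33.2 FPKM for the 18 H2B genes, 54.7 and 67.5 FPKM for the 12 H3 genes and 60.1 and 69.7 FPKM for the 6 H1 genes. The replication-independent variant *H3f3b*, by contrast, is made throughout the cell cycle, and it stood at rank 35 with 136 and 148 FPKM. Many of these genes are near-identical copies, so the division of reads among them depends on the counting of the authors, and values of single histone genes are uncertain.

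Replication-dependent histone mRNAs end in a conserved stem-loop in place of a poly(A) tail, and the stem-loop binding protein SLBP recognises it. The stem-loops of 5 abundant genes of chromosome 13 are shown because they mark this class of transcript in the order. They were read from the GENCODE transcripts on GRCm38, 5′ to 3′, and the capitals mark the stem and loop.
Hist1h4h: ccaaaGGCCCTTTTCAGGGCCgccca
Hist1h2bb: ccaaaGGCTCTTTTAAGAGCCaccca
Hist1h4d: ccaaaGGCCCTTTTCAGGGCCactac
Hist1h2bm: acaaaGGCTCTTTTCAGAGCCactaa
Hist1h3b: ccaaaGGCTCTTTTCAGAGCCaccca
The levels of the 5 genes were 307 and 314 FPKM for *Hist1h4h*, 196 and 206 FPKM for *Hist1h2bb*, 160 and 221 FPKM for *Hist1h4d*, 154 and 203 FPKM for *Hist1h2bm* and 101 and 200.1 FPKM for *Hist1h3b*. The 2 H4 genes had a stem that starts with GGCCC, and the other 3 had one that starts with GGCTC. Annotated transcripts ran on past the stem-loop, by 46 bases in *Hist1h4h* and by 770 in *Hist1h4d*. Either form, GGCCCTTTTNAGGGCC or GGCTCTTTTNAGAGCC on the transcript strand, occurred in 42 of the 67 Hist genes (62.7%) and in 3 of the 21739 other nuclear coding genes (0.0138%). The 3 others were *H2afx* with 18.4 and 17.0 FPKM, *Trim17* with 0.186 and 0.382 FPKM and *H2bfm*, which was listed at 0. Hist genes with the stem-loop had a median level of 54.7 and 65.9 FPKM, and the 25 without it in their annotated transcript had 58.6 and 51.9 FPKM. Among those 25 were *Hist1h2ak* and *Hist1h2bn*, at ranks 11 and 13 of the order. *Slbp* itself had 2.49 and 3.27 FPKM, and the histone chaperone gene *Nasp* 25.7 and 22.2 FPKM.

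The ribosomal protein genes formed the next class, with 6.80% and 5.78% of nuclear coding FPKM and 19 of the top 100 genes. At 1 FPKM or more in both libraries were 82 of its 85 members, against 38.5% of all nuclear coding genes. *Rpl4* led with 240.03 and 248 FPKM, and *Rpl17* followed with 247 and 212 FPKM. Tubulins, actins and their binding proteins held 5.05% and 5.84%, RNA-binding and splicing factors 3.46% and 3.33%, and translation factors 2.81% and 2.27%. Chaperones held 1.85% and 2.30%, and calmodulins, kinase adaptors and G proteins 2.13% and 1.96%. The transcription factor class of 212 genes held 1.82% and 1.84%, nuclear genes of oxidative phosphorylation 1.67% and 1.76%, and the ubiquitin and proteasome class 1.51% and 1.58%. Vesicle and vacuolar ATPase genes held 1.11% and 1.09%. Glycolytic enzymes, led by *Gapdh* with 37.7 and 50.1 FPKM, held only 0.252% and 0.294%. In replicate 2 the tubulin and actin class stood level with the ribosomal proteins, and translation factors, chaperones and calmodulins changed places between the libraries, so the order of these classes was not resolved.

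**Figure D2:**
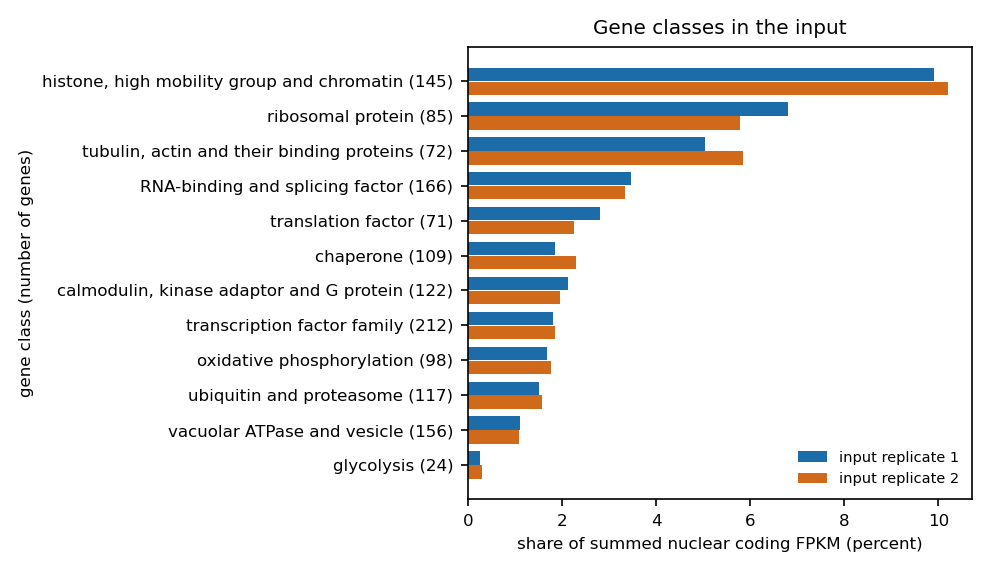
Share of the summed nuclear coding FPKM (percent) held by each of 12 gene classes, with the number of genes in brackets and 1 bar per input library. The histone, high mobility group and chromatin class is highest in both libraries, at 9.91% and 10.2%.

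The abundant genes were also short. The median length of the longest annotated transcript was 1143.5 nt for the top 100 genes, 2127.5 nt for ranks 101 to 500 and 3672.5 nt for ranks 1001 to 5000, but again lower, 2743 nt, for ranks 5001 to 21806. Without the Hist genes the median of the top 100 was 1743 nt. Of the top 100 genes, 28 consisted of a single exon block, 15 had exons that overlap another gene and 21 held a small RNA gene within their span. Whether reads of those small RNAs entered the levels of their hosts was not tested.

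The 4 markers of the granule cell lineage were all high in both libraries. *Neurod1* (chr2:79452521-79456751) and *Zic1* (chr9:91358058-91365810; GRCm38, GENCODE) are given above. *Cntn2*, which encodes the axonal adhesion molecule TAG-1 of premigratory granule cells, had 15.3 and 19.0 FPKM, and *Pax6*, a paired-box factor of the granule lineage, 12.5 and 14.4 FPKM. The median of the 4 genes was 43.6 and 68.6 FPKM, and each was higher in replicate 2. All 4 stood among the 1095 genes that reached 10 FPKM in both libraries, so the markers of the label were present. They do not show that the preparation was pure. The list holds only 4 genes, and *Fabp7*, *Aqp4*, *Apoe* and *Slc1a3*, markers of astrocytes and Bergmann glia that are described below, all stood above *Cntn2* and *Pax6* in both libraries.

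Transcription factors of cerebellar development followed the same lineage. Of 69 such genes, 60 reached 1 FPKM in both libraries (87.0%, against 38.5% of all nuclear coding genes). In both, 19 reached 10 FPKM, and the median was 4.59 and 4.83 FPKM. After *Neurod1* and *Zic1* came the nuclear factor I genes that act in granule neuron maturation, with *Nfib* at 65.5 and 53.5 FPKM, *Nfia* at 60.3 and 49.8 FPKM and *Nfix* at 51.4 and 50.2 FPKM. *Sox11*, a factor of newborn neurons, had 59.4 and 52.1 FPKM. The order went on with *Insm1* at 28.4 and 30.6 FPKM, *Zic2* at 21.02 and 30.6 FPKM, *Neurod2* at 18.3 and 33.2 FPKM and *Nhlh2* at 22.6 and 25.4 FPKM. The nuclear factor I genes and *Sox11* all lay between 49.8 and 65.5 FPKM, and the values of all 4 lay above those of *Insm1* and the genes after it in both libraries.

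Dividing cells were represented throughout. All 30 cell cycle genes reached 1 FPKM in both libraries (100%, against 38.5% of all nuclear coding genes). Their median was 5.22 and 7.05 FPKM. *Mki67*, the standard marker of cycling cells, had 68.3 and 35.2 FPKM, the cyclin A gene *Ccna2* 33.1 and 26.7 FPKM, the S-phase clamp gene *Pcna* 18.2 and 19.5 FPKM and *Top2a*, the topoisomerase of dividing cells, 18.3 and 20.6 FPKM. *Tk1* was the lowest member, with 1.26 and 1.44 FPKM. Which cell type these transcripts came from cannot be read from bulk RNA.

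Among 14 markers of granule cell precursors, 12 reached 1 FPKM in both libraries (85.7%, against 38.5% of all nuclear coding genes). Their median was 7.50 and 6.15 FPKM. *Ccnd2*, a D-type cyclin of the precursors, had 44.7 and 35.4 FPKM, *Sfrp1*, a secreted Wnt antagonist, 29.8 and 34.2 FPKM, and the homeobox gene *Barhl2* 17.3 and 24.9 FPKM. *Atoh1*, the factor that specifies the granule lineage and is shut off on differentiation, had only 3.33 and 5.09 FPKM, so that *Neurod1* stood 54.9 and 44.1 times higher. In the Sonic hedgehog pathway 15 of 21 genes reached 1 FPKM in both libraries (71.4%). The receptor genes *Ptch1* and *Smo* had 3.65 and 4.79 FPKM and 6.53 and 8.92 FPKM, the transcriptional effector genes *Gli2* and *Gli1* had 4.11 and 4.83 FPKM and 1.91 and 2.06 FPKM, and the inhibitor gene *Sufu* had 4.05 and 4.59 FPKM. The ligand gene *Shh*, which Purkinje cells express, had 0.123 and 0.171 FPKM. The target gene *Mycn* differed most between the libraries, with 9.16 and 2.05 FPKM.

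Markers of immature granule neurons were the most abundant of the stage lists. All 20 reached 1 FPKM in both libraries (100%, against 38.5% of all nuclear coding genes). In both, 13 reached 10 FPKM, and the median was 21.8 and 24.9 FPKM. Apart from the nuclear factor I genes, the highest were *Igfbpl1* with 50.7 and 55.4 FPKM and *Tubb3*, the neuronal beta-tubulin, with 46.7 and 55.9 FPKM. *Dcx*, the microtubule-binding protein of migrating neurons, had 31.8 and 28.7 FPKM, and the guidance molecule gene *Sema6a*, which acts in the inward migration of granule cells, had 31.1 and 24.3 FPKM.

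Markers of mature granule neurons stood far lower. The 22 coding members had a median of 1.30 and 1.92 FPKM. Of these, 12 reached 1 FPKM in both libraries (54.5%, against 38.5% of all nuclear coding genes). *Calm2* was the one member in the top 100, and it is expressed in many cell types. *Cadps2*, a regulator of dense-core vesicle release, had 11.6 and 13.7 FPKM, and *Rbfox3*, which encodes the neuronal nuclear antigen NeuN, 10.8 and 13.3 FPKM. *Cbln1*, which encodes the synapse organiser that granule cells release onto Purkinje cells, differed between the libraries, with 3.79 and 19.9 FPKM. Defining members of the mature stage were at or near 0 in replicate 1 and below 1 FPKM in replicate 2. The GABA-A receptor subunit gene *Gabra6*, which in the brain is largely restricted to granule cells, was listed at 0 in replicate 1 and had 0.67 FPKM in replicate 2, where the median of all ranked genes was 0.484 FPKM. *Gabrd* had 0.0409 and 0.29 FPKM, and the NMDA receptor subunit gene *Grin2c* was listed at 0 in replicate 1 and had 0.0463 FPKM in replicate 2. In each library the median order of the stage lists was immature, then precursor or cell cycle, then mature.

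**Figure D3:**
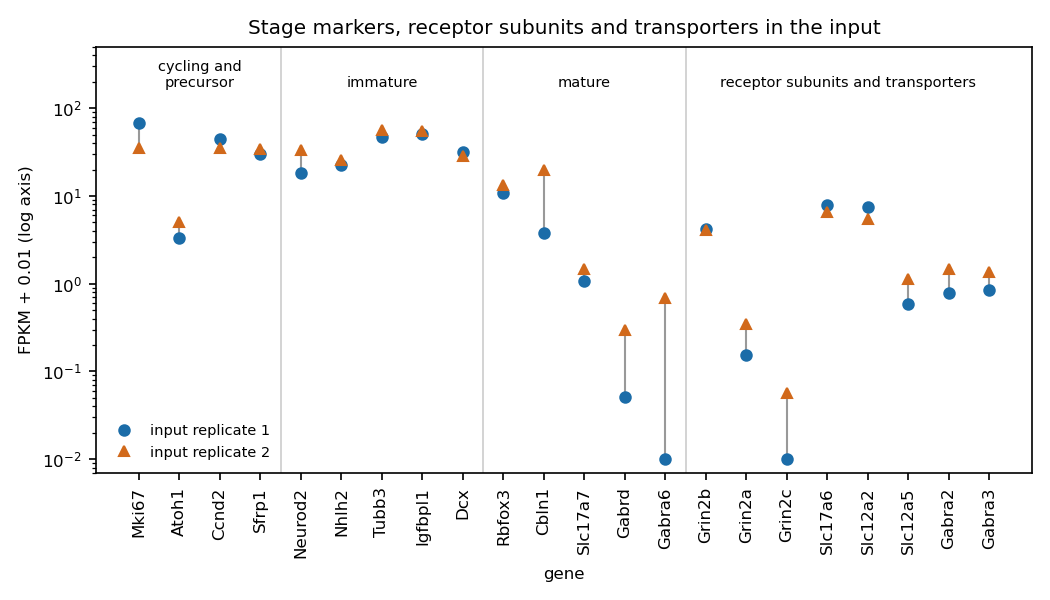
FPKM + 0.01 on a log axis of stage markers, receptor subunits and transporters, with a circle for input replicate 1 and a triangle for replicate 2 joined by a line. Cycling, precursor and immature markers lie above 3 FPKM, while *Gabrd*, *Gabra6* and *Grin2c* lie below 1 FPKM in both libraries.

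Several receptor subunits and transporters are known to be exchanged as neurons mature, and 3 such pairs were compared, which were chosen after their values were seen. *Grin2b*, the juvenile NMDA receptor subunit gene, had 4.15 and 4.06 FPKM, against 0.144 and 0.333 FPKM for the adult subunit gene *Grin2a*, a ratio of 28.8 and 12.2. The chloride importer gene *Slc12a2* (NKCC1) had 7.39 and 5.47 FPKM, against 0.576 and 1.13 FPKM for the exporter gene *Slc12a5* (KCC2), a ratio of 12.8 and 4.84. The vesicular glutamate transporter gene *Slc17a6* (VGLUT2) had 7.81 and 6.52 FPKM, against 1.07 and 1.47 FPKM for *Slc17a7* (VGLUT1), which replaces it in mature parallel fibres, a ratio of 7.31 and 4.44. In each of these 3 pairs both values of the juvenile gene lay above both values of the adult gene, and all 3 ratios were smaller in replicate 2. *Slc17a6* is also on the list for unipolar brush cells and cerebellar nuclei below. Bulk RNA does not give the cells these transcripts came from, so the pairs do not describe granule cells alone.

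Of 22 glutamate receptor genes, 11 reached 1 FPKM in both libraries (50%, against 38.5% of all nuclear coding genes). The median of the 22 was 1.06 and 1.52 FPKM. The AMPA receptor subunit genes *Gria1* and *Gria4* led with 12.001 and 16.9 FPKM and 12.05 and 11.99 FPKM, followed by the metabotropic receptor gene *Grm3* with 6.44 and 7.82 FPKM and by *Gria2* with 4.11 and 5.35 FPKM. *Gria1* and *Gria4* are also expressed by Bergmann glia. Of 14 GABA-A receptor subunit genes, 5 reached 1 FPKM in both (35.7%, near the share of all genes), with a median of 0.779 and 1.05 FPKM. The alpha subunit genes *Gabra2* and *Gabra3* had 0.765 and 1.45 FPKM and 0.832 and 1.36 FPKM, and their values overlapped. Of 8 chloride and vesicular transporter genes, 4 reached 1 FPKM in both libraries (50%), with a median of 0.946 and 1.27 FPKM. The acetylcholine transporter gene *Slc18a3* was listed at 0.

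The cytoskeleton of growing axons was among the most abundant groups. All 31 genes on the list reached 1 FPKM in both libraries (100%, against 38.5% of all nuclear coding genes). In both, 27 reached 10 FPKM, and the median was 56.8 and 55.9 FPKM. Beside the actin, thymosin and tubulin genes above were the growth cone protein genes *Basp1* with 140 and 127 FPKM, *Marcksl1* with 88.1 and 126 FPKM and *Gap43* with 56.8 and 46.4 FPKM. *Tuba1a* exceeded its close relative *Tuba1b* 4.08 times in both libraries, although reads shared by the 2 genes make their division uncertain. The microtubule-associated protein genes *Map1b*, *Map2* and *Mapt* had 66.7 and 85.4, 13.1 and 12.3, and 7.57 and 11.6 FPKM.

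Genes of granule cell migration and guidance were mostly detected, with 23 of 26 at 1 FPKM or more in both libraries. This was 88.5%, against 38.5% of all nuclear coding genes, and the median was 5.17 and 4.93 FPKM. After *Sema6a* and *Cntn2*, the netrin receptor gene *Dcc* had 12.1 and 14.5 FPKM, and *Reln*, the glycoprotein that directs neuronal layering, 9.98 and 15.1 FPKM. *Astn1*, an adhesion protein gene of migration along glia, and its relative *Astn2* had 6.02 and 9.18 FPKM and 7.52 and 9.71 FPKM, and the chemokine receptor gene *Cxcr4* 6.41 and 8.53 FPKM. *Bdnf*, a chemotactic factor for granule cells, was listed at 0 in replicate 1 and had 0.0103 FPKM in replicate 2.

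Other neurons of the cerebellum were represented unequally. In bulk samples, fewer cells of a type and less RNA per cell cannot be told apart, so marker levels do not give cell numbers. Of 17 Purkinje cell markers, 14 reached 1 FPKM in both libraries (82.4%, against 38.5% of all nuclear coding genes). Their median was 4.47 and 5.16 FPKM and their summed level 136 and 171 FPKM. *Pcp4*, a calmodulin-binding peptide gene, had 56.2 and 76.8 FPKM, *Car8* 18.1 and 15.5 FPKM and the homeobox gene *Lhx1* 13.6 and 15.3 FPKM, while the more Purkinje-specific *Pcp2* had 5.18 and 9.39 FPKM and *Calb1*, a calcium buffer gene, 10.3 and 7.62 FPKM. Of 14 GABAergic interneuron markers 9 reached 1 FPKM in both libraries (64.3%), with a summed level of 25.1 and 24.5 FPKM. The GABA-synthesising enzyme genes *Gad1* and *Gad2* had 1.97 and 2.00 FPKM and 1.46 and 1.14 FPKM, and *Pax2*, a marker of interneuron progenitors, 1.30 and 1.48 FPKM. Of 12 markers of unipolar brush cells and cerebellar nuclei 4 reached 1 FPKM in both libraries (33.3%, against 38.5% of all nuclear coding genes). Among them were *Slc17a6*, *Eomes* and *Otx2*, and the nuclear markers *Tbr1* and *Lhx9* stayed below 0.2 FPKM.

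Markers of astrocytes and Bergmann glia were the most abundant of the glial lists. Of 22 astrocyte and Bergmann glia markers, 20 reached 1 FPKM in both libraries (90.9%, against 38.5% of all nuclear coding genes). In both, 8 reached 10 FPKM. Their median was 8.49 and 11.1 FPKM and their summed level 428 and 438 FPKM. *Fabp7*, the brain lipid-binding protein of Bergmann glia, had 152 and 77.8 FPKM. The water channel gene *Aqp4* had 60.4 and 61.1 FPKM, *Apoe*, the main lipoprotein of brain lipid transport, 50.6 and 64.5 FPKM and the glial glutamate transporter gene *Slc1a3* 36.2 and 66.1 FPKM. *Gdf10*, a marker of Bergmann glia, had 16.6 and 26.5 FPKM and *Gfap* 14.7 and 19.8 FPKM. *Neurod1* stood 5.05 and 3.39 times above *Slc1a3*, and 1.21 and 2.88 times above *Fabp7*. Of 16 oligodendrocyte lineage markers, 15 reached 1 FPKM in both libraries (93.8%). Their median was 4.99 and 4.51 FPKM and their summed level 118 and 148 FPKM. Both ends of that lineage were present, with the myelin protein genes *Cnp* at 8.83 and 8.70 FPKM and *Mbp* at 6.50 and 8.49 FPKM and the precursor receptor gene *Pdgfra* at 7.73 and 6.92 FPKM. Of 15 microglia markers 11 reached 1 FPKM in both libraries (73.3%), with a median of 2.59 and 2.51 FPKM. The complement gene *C1qb* had 6.08 and 5.34 FPKM and the protease gene *Ctss* 5.01 and 6.07 FPKM, and the summed level was 44.2 and 39.2 FPKM.

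The lists for vascular and barrier cells had lower medians than the glial lists. Of 12 endothelial markers 4 reached 1 FPKM in both libraries (33.3%, against 38.5% of all nuclear coding genes), led by the tight junction gene *Cldn5* with 4.81 and 10.4 FPKM, and the median was 0.787 and 1.28 FPKM. Of 16 mural and meningeal markers 6 did so (37.5%), led by the pericyte gene *Rgs5* with 11.4 and 9.31 FPKM, with a median of 0.701 and 0.989 FPKM. None of 9 ependymal and choroid plexus markers reached 1 FPKM in both libraries, and their summed level was 2.81 and 1.97 FPKM. Erythroid markers were higher, led by the genes of the globins, the most abundant proteins of red cells. *Hbb-bs* had 34.0 and 27.2 FPKM and *Hba-a2* 29.0 and 21.5 FPKM, while *Slc4a1*, which encodes the anion exchanger of the red cell membrane, had 0.0689 and 0.0886 FPKM. Of the 8 members 5 reached 1 FPKM in both libraries (62.5%, against 38.5% of all nuclear coding genes). The median was 10.01 and 8.11 FPKM and the summed level 111 and 85.7 FPKM, and *Slc4a1* was the 1 member that was higher in replicate 2.

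**Figure D4:**
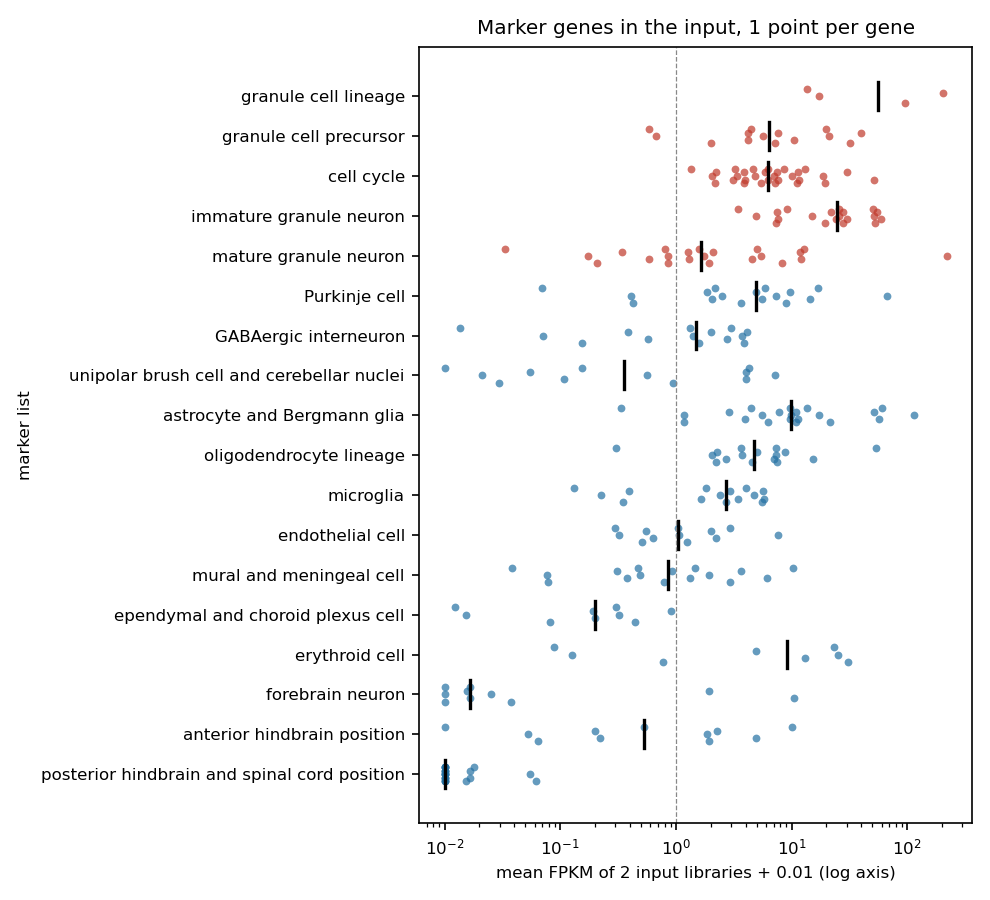
Mean FPKM of both input libraries + 0.01 on a log axis, with 1 point per marker gene and a black bar at the median of each of 18 lists (red for the granule lineage and cell cycle, blue for other cells and positions). The granule lineage median is the highest, the astrocyte and Bergmann glia median is the highest of the blue lists, and most posterior Hox genes sit at 0.

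Genes that mark position along the neural tube were detected in part. Of 11 genes of the anterior hindbrain, from which the cerebellum arises, 5 reached 1 FPKM in both libraries (45.5%, against 38.5% of all nuclear coding genes), and the median was 0.398 and 0.632 FPKM, close to that of all genes. *Pax8* was listed at 0 and *Gbx2* had 0.018 and 0.0899 FPKM. Among the 5 were *Meis1* at 10.1 and 9.95 FPKM and the engrailed genes *En2* and *En1* at 5.22 and 4.70 FPKM and 1.84 and 2.00 FPKM. Of 23 posterior Hox genes, which mark the caudal hindbrain and spinal cord, none reached 1 FPKM and 17 were listed at 0 in both libraries. Of 10 forebrain genes, 2 reached 1 FPKM in both libraries (20%), and *Emx1* and *Nkx2-1* were listed at 0 in both. *Neurod6*, a relative of *Neurod1*, was the highest of them, with 9.98 and 11.2 FPKM. *Xist*, the noncoding RNA of the inactive X chromosome of female cells, had 8.31 and 6.06 FPKM, and the Y-linked genes *Ddx3y* and *Eif2s3y* had 1.53 and 2.06 FPKM and 1.53 and 1.59 FPKM. Both libraries thus held transcripts of female and of male cells.

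Gene families that are used in other tissues were mostly listed at 0. Of 1134 olfactory receptor genes, 1054 were listed at 0 in both libraries, 2 reached 0.1 FPKM in both and none reached 1 FPKM. Of 295 vomeronasal receptor genes, 287 were listed at 0 and none reached 0.1 FPKM in both, and all 25 genes of the prolactin family were listed at 0. These families were picked after their values were seen, so their levels are a description and set no floor.

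Immediate early genes, which respond to activity and to cell dissociation, were detected in part. Of 30 such genes, 15 reached 1 FPKM in both libraries (50%, against 38.5% of all nuclear coding genes). The median of the 30 was 1.21 and 1.48 FPKM. The AP-1 genes *Jun* and *Jund* had 30.5 and 44.2 FPKM and 18.8 and 18.2 FPKM, *Egr1* had 18.1 and 24.5 FPKM and *Fos* 11.6 and 13.1 FPKM. The activity-dependent genes *Arc* and *Npas4* stayed low, with 0.49 and 0.441 FPKM and 0.327 and 0.831 FPKM, as did the heat-inducible chaperone genes *Hspa1a* and *Hspa1b*, at 0.144 and 0.125 FPKM and 0.221 and 0.101 FPKM.

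The m6A reader proteins bind mRNAs that carry N6-methyladenosine. *Ythdf1*, *Ythdf2* and *Ythdf3*, which encode the cytoplasmic readers, had 6.65 and 6.74, 5.71 and 5.66, and 6.02 and 5.48 FPKM. *Ythdf1* lay above both others in both libraries, and *Ythdf2* and *Ythdf3* overlapped. The nuclear reader gene *Ythdc1* had 3.38 and 3.69 FPKM and *Ythdc2* 0.923 and 0.896 FPKM. Among 15 housekeeping reference genes, 14 reached 1 FPKM in both libraries (93.3%, against 38.5% of all nuclear coding genes). Their median was 10.6 and 15.3 FPKM, so the readers stood below the median of this list.

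The 2 libraries gave similar levels for most genes. Over the 8905 nuclear coding genes whose mean reached 1 FPKM, Pearson's r of log2(FPKM + 1) was 0.944 and Spearman's rho of FPKM was 0.922, across genes, which are not independent replicates. The median log2 difference of replicate 2 from replicate 1 was 0.07, which turned to -0.038 when values were scaled to nuclear coding genes, with 5% of genes below -0.49 and 5% above 0.63. The difference was within 1.5 times for 90.8% of the genes, and the median coefficient of variation was 14.1%. More than 2 times higher were 107 genes in replicate 2 and 41 in replicate 1. The marker lists moved unequally, with a median log2 difference of 0.29 for the granule lineage, 0.30 for astrocytes and Bergmann glia, 0.30 for endothelial cells and 0.24 for mature granule neurons, against 0.05 for granule cell precursors, 0.05 for unipolar brush cells and cerebellar nuclei, 0.03 for the anterior hindbrain, 0.0018 for GABAergic interneurons, -0.01 for ependymal and choroid plexus cells, -0.15 for microglia and -0.33 for erythroid cells. The reason for these differences was not tested.

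Among the 2977 genes whose mean reached 5 FPKM, those that were highest in replicate 1 relative to replicate 2 were led by *Mapk6*, an atypical MAP kinase gene, with 12.5 and 2.07 FPKM, *Mycn*, the kinase gene *Taok1* with 15.4 and 4.41 FPKM and *Ywhag*, a 14-3-3 adaptor gene, with 21.2 and 6.61 FPKM. Highest in replicate 2 were 4 predicted genes, followed by *2510002D24Rik* with 1.78 and 11.4 FPKM, *Cbln1*, the epithelial membrane protein gene *Emp2* with 4.31 and 17.0 FPKM, the matrix protease gene *Mmp14* with 3.07 and 12.6 FPKM and the amino acid transporter gene *Slc7a10* with 2.09 and 8.94 FPKM.

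**Figure D5:**
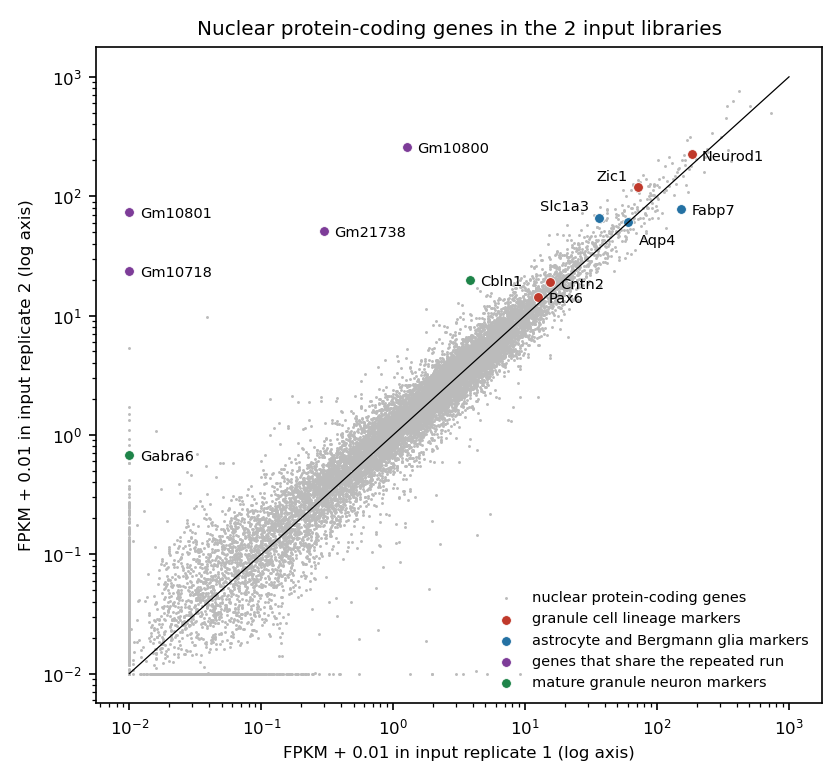
FPKM + 0.01 of each nuclear protein-coding gene in input replicate 1 (x axis) and replicate 2 (y axis), both log axes, with the line of equal levels. Most genes lie along the line, while *Gm10800*, *Gm10801*, *Gm21738* and *Gm10718* lie far above it.

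The 4 predicted genes were at or near 0 in replicate 1 and abundant in replicate 2. *Gm10800* (chr2:98666547-98667301) had 1.27 and 260 FPKM, *Gm10801* (chr2:98662237-98664083) was listed at 0 and had 73.5 FPKM, *Gm21738* (chr14:19415857-19418930) had 0.288 and 50.8 FPKM and *Gm10718* (chr9:3023547-3025218) was listed at 0 and had 23.5 FPKM. Their annotated transcripts are related in sequence. They share 74 runs of 24 nt, and each pair shares between 19.0% and 45.0% of its runs of that length. The run that occurs most often is shown because it links the genes that differ most between the libraries. It is read from the GENCODE transcripts on GRCm38, 5′ to 3′, and capitals are not used.
Shared run: tttctcattttccatgattttcag
It occurs 4 times in the transcript of *Gm10718* and 3 times in each of the other three. In all, transcripts of 12 genes of the annotation hold it, all 12 of them nuclear protein-coding by their annotation. Of these, 11 were higher in replicate 2, 8 reached 1 FPKM there and 1 reached it in replicate 1. Reads of such a repeated sequence can be placed on any of its copies, so single values of these genes are uncertain, and the rank of 39 that *Gm10800* has in the order rests on replicate 2 alone. Without replicate 2 it stood at rank 7926, and without replicate 1 at rank 11.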

How the data were processed

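RNA from the input of a RIP experiment was sequenced from granule cell preparations of wild-type mice. The authors deposited 1 table of FPKM values per gene and library, all columns of which map to samples by name. Only the 2 input columns were analysed here, and replicates were not pooled. For mapping, the study's methods give STAR 2.5 with Cufflinks 2.2.1 and GRCm38, but the submitters' processing notes list Bowtie 0.12.2, mm8 and mm9, so the pipeline behind the FPKM values is uncertain. The labels give 2 TruSeq kits, of which 1 is stranded. No source used here says how strand was treated, so overlapping and antisense genes cannot be told apart. No read counts are given. The lowest values did not fall on whole reads (37.9% and 35.2% within 0.1 of a step), so no counts were recovered and no counting intervals are given. The estimate of the step was tested on simulated whole fragment counts. Most real values did not fall on a step, so that test cannot show that the estimate holds here.

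Symbols, biotypes, lengths, coordinates and transcript sequences were taken from GENCODE mouse release 21 (GRCm38), and 147 IDs had no entry. Genes were ranked by mean FPKM. The threshold for detection was 1 FPKM in both libraries, and log2 differences used a pseudocount of 1. Values of 2 neighbours were called apart where both values of one lay above both of the other. Classes were set by symbol pattern (12 classes), and 19 marker and 10 pathway lists were described by counts, medians and sums, with no test. Genes named were the 40 most abundant, the 5 highest of each class, list members (the 4 highest and those at or near 0), and the 10 with the greatest difference each way between replicates among genes whose mean reached 5 FPKM. Genes with histone stem-loops, genes that share the repeated run and receptor and prolactin families were added after their values were seen. The members, lists and rules were chosen with earlier results of these data known. Alternatives left out each library, changed thresholds, the pseudocount, the scaling and the average, or left out short transcripts or ribosomal protein genes. Python 3.11.15 with numpy 2.4.6, pandas 2.3.3, scipy 1.17.1 and matplotlib 3.10.9 was used. Some members of the lists are counted but not reported here by name.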

Additional observations from a re-analysis of the deposited data

How the results depend on the processing

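With 2 libraries of unknown depth in reads, no difference between libraries or genes could be tested, and levels near 0.1 FPKM rest on a few fragments. No paired analysis was possible because the input is 1 group and no result comes from a test. Of the 100 most abundant genes, 90 to 92 stayed in the top 100 when 1 library was left out, 100 when values were scaled to nuclear coding genes, 99 by the geometric mean and 81 among transcripts of at least 500 nt. The number of detected genes, 8391 at 1 FPKM in both libraries, was 12895 at 0.1 FPKM, 2581 at 5 FPKM and 13290 at a level of 1 after nuclear coding values were scaled to a sum of 1000000, and 8736 to 9003 with 1 library. Weighted by transcript length, the share of the top 100 genes (mean 22.3%) was 15.0%, that of ribosomal proteins (6.29%) 2.24%, that of the tubulin and actin class (5.44%) 3.59% and that of the histone and chromatin class (10.1%) 3.60%. The last was 6.66% among transcripts of at least 500 nt and 10.7% without ribosomal protein genes. The log2 ratio of the granule lineage median to that of another list was 2.52 for astrocytes and Bergmann glia, 3.56 for oligodendrocytes, 3.51 for Purkinje cells, 4.37 for microglia, 5.25 for GABAergic interneurons and 5.76 for endothelial cells. As a difference of mean log2(FPKM + 1) these were 2.12, 2.94, 3.11, 3.896, 4.31 and 4.39. The granule list holds 4 genes and the astrocyte list 22, so such ratios compare lists of unlike size and make-up. By summed level the order was the other way, with 283 and 376 FPKM for the granule list and 428 and 438 FPKM for astrocytes and Bergmann glia. The log2 ratio of immature to mature medians was 3.91 (3.70 to 4.07 with 1 library). The median log2 difference between replicates (0.07) was 0.088 with a pseudocount of 0.1 and 0.12 for genes of at least 10 FPKM, and it turned to -0.038 after scaling to nuclear coding genes.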
